A study of Mus musculus with 16 samples.

Results

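Igf2bp2-bound RNA was described here in the mouse atrial cardiomyocyte line HL-1 after transfection with siAirn-001.1, an siRNA against the long non-coding RNA Airn. RNA recovered with an antibody against Igf2bp2 was compared with RNA recovered with control IgG from cells given the same siRNA, by RNA immunoprecipitation and Affymetrix arrays (RIP-chip). Each precipitate had 4 biological replicates, so this comparison rested on 8 arrays. A parallel set of precipitates, also 4 arrays for each antibody, came from cells given a scrambled siRNA. Both siRNAs were used at 10 nM. All 4 groups were the same cell line, grown in Claycomb medium with norepinephrine, and no input RNA was analysed here. Only 1 siRNA sequence against Airn was used, and values for it cannot be told apart from effects of that sequence on other RNAs.

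The members were the rows of the authors' deposited table that carry a single gene symbol. There were 22406 such rows of 35556 in all, and they held 20170 distinct symbols. A row's value is the difference between the Igf2bp2 and the IgG precipitate after the Airn siRNA, read here as log2. A value above 0 means a higher array value for the RNA in the Igf2bp2 precipitate. The normalization was not given, so whether values compare amounts of an RNA or its shares of each precipitate is unknown. The table's headers state no logarithm base, and every fold given below assumes base 2. The table holds no level of any RNA and no value of a single array, so differences cannot be set beside abundance, and a gene's level in the cells is unknown. Errors are standard errors (SE) recovered from each deposited difference and its p-value, and ± marks them throughout. A row was called when its deposited adjusted p, which covers all 35556 rows, was under 0.05. Where a gene had several rows, the row with the smallest SE stands for it.

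Igf2bp2 belongs to a family of RNA-binding proteins that hold mRNAs in cytoplasmic granules and act on their stability, transport and translation. The family reads N6-methyladenosine (m6A), a methyl mark on mRNA. Airn is transcribed antisense to Igf2r in an imprinted cluster and is best known for silencing genes of that cluster on the paternal chromosome. Antibody and IgG precipitates both hold some RNA that sticks without specific binding, which is why the difference between them, and not the precipitate alone, is the measure of association.

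Array probes for a microRNA gene report on RNA from its locus, and the mature strand is the product that acts on targets. Mir218-1 was 1 of the 2 microRNA genes called after the Airn siRNA, both of them lower with Igf2bp2, and its mature strands are shown because no other called microRNA gene has an entry in the table used. Mir379 and Mir411 were not called. They are shown, as a choice made after their values were seen, because their 3' strands share a seed and their loci lie on the same chromosome within a short distance. The Mir15a strand is shown as the contrasting case, a microRNA gene with a value above 0. The capitals mark the seed, bases 2 to 8, and the sequences come from RefSeq with the build GRCm38.p6.
miR-218-5p, chr5:48223966-48223986, plus strand: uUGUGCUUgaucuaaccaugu
miR-218-1-3p, chr5:48224005-48224026, plus strand: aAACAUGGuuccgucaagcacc
miR-379-3p, chr12:109709102-109709123, plus strand: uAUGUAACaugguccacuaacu
miR-411-3p, chr12:109710225-109710246, plus strand: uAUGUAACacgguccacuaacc
miR-15a-5p, chr14:61632075-61632096, minus strand: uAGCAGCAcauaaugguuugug

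After the Airn siRNA, few single RNAs were called, and those that were mostly had the same direction with the scrambled siRNA. Over all rows, 0.63% were called higher and 0.425% lower, per the authors' deposited table. Among the rows with a single symbol, the calls were 176 higher (0.786%) and 40 lower (0.179%), which come to 172 and 36 symbols. Adjusting p over the rows with a single symbol alone left 28 higher and 8 lower. With 1 row for each of the 20170 genes, the counts were 164 higher (0.813%) and 34 lower (0.169%). With the scrambled siRNA, 25.5% of genes were called higher and 17.2% lower, per the authors' deposited table. At an unadjusted p under 0.05, 21.3% of genes were higher and 15.9% lower after the Airn siRNA; gene groups are set against these shares below, since single calls are rare, and 50.3% of genes lay above 0.

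The spread of the values was narrower after the Airn siRNA. Over rows with a single symbol, their SD in the authors' deposited table was 0.51, against 0.66 with the scrambled siRNA. The median value was 0.04, with quartiles of -0.41 and 0.45, and the median SE was 0.24. Rows that were at least 2-fold higher in the authors' deposited table numbered 229 after the Airn siRNA and 1227 with the scrambled siRNA; at least 2-fold lower were 293 and 1019. The 5807 rows called higher with the scrambled siRNA had a median of 0.80 there and of 0.52 after the Airn siRNA, per the authors' deposited table. Those rows were picked for their scrambled values, so this shift towards 0 is given as a description with no test. Of the 176 rows called higher after the Airn siRNA, 141 were also called higher with the scrambled siRNA, per the authors' deposited table, and of the 40 called lower, 29 were also called lower. No row was called in opposite directions. Across the rows, both sets of values correlated with Pearson's r of 0.861 and Spearman's rho of 0.86; rows share probes, antibodies and arrays and are not independent replicates.

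**Figure D1:**
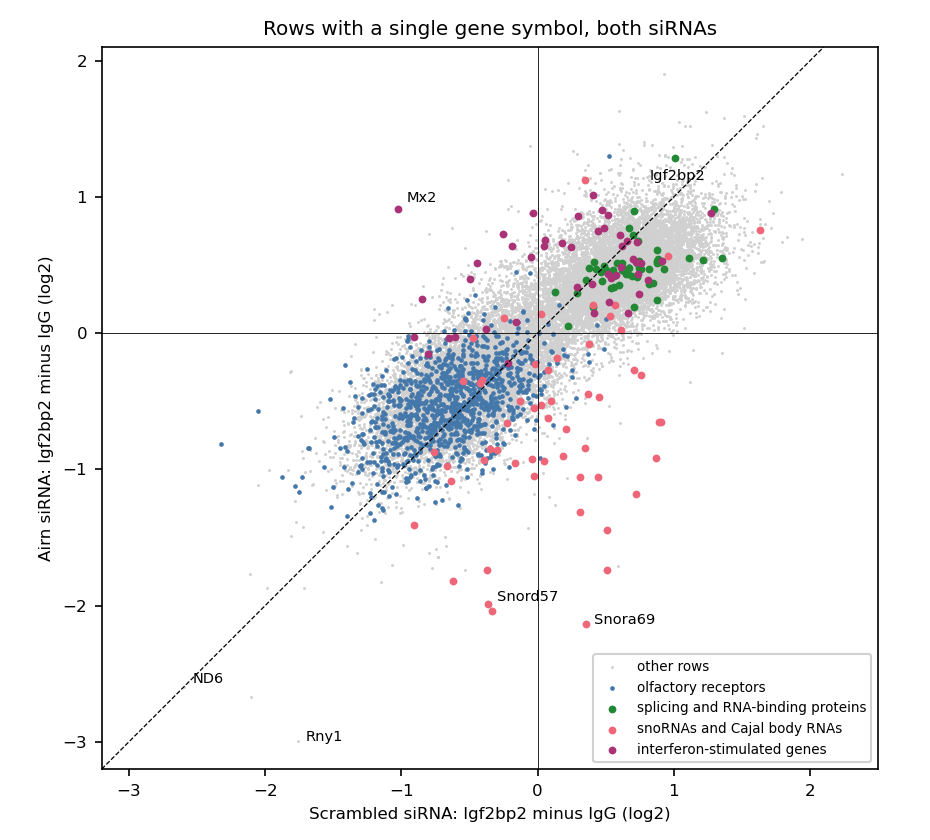
Each point is a row with a single gene symbol; the x axis gives the Igf2bp2 minus IgG difference (log2) with the scrambled siRNA and the y axis the same after the Airn siRNA, with equal values on the dashed line. Most rows lie along one band, olfactory receptors lie low on both axes, many small nucleolar RNAs lie far below the dashed line, and several interferon-stimulated genes, led by Mx2, lie above it.

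The transcripts of the siRNA's target and of the precipitated protein came first. Igf2bp2 mRNA was itself enriched, at 1.00 ± 0.21 (adjusted p = 0.0414) in the authors' deposited table; its scrambled siRNA value, also called, was 0.74. Airn was not called, with 0.38 ± 0.21 (adjusted p = 0.197) in one row of the authors' deposited table and 0.44 ± 0.29 (adjusted p = 0.272) in its other row. A difference between precipitates of the same cells does not measure how much Airn RNA the siRNA removed, and the silencing could not be checked from these values. Igf2r, whose gene Airn overlaps, stood at -0.10 ± 0.21 in the authors' deposited table. The same authors' deposited table placed the paralogues Igf2bp1 and Igf2bp3 at 0.20 and -0.41, neither called, and the other Igf2bp1 row had the opposite sign (-0.19). For the imprinted non-coding RNA H19 the authors' deposited table gave 0.90 ± 0.27 (adjusted p = 0.0735), and for its neighbour Igf2, the growth factor that gave the family its name, -0.49 ± 0.20 (adjusted p = 0.122). Thus H19 lay above 0 and Igf2 below 0, as they did with the scrambled siRNA (0.76 and -0.47 in the authors' deposited table), and neither was called after the Airn siRNA.

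Small structured RNAs made up the low end of the range. These RNAs act as scaffolds or guides within ribonucleoproteins and are not translated. Among rows with a single symbol, the lowest value in the authors' deposited table was that of Rny1, a Y RNA bound by the Ro60 protein, at -2.99 ± 0.62 (adjusted p = 0.0422). The vault RNA Vaultrc5 followed at -2.67 ± 0.39 (adjusted p = 0.00949) in the authors' deposited table. Rny3, the other Y RNA measured, was not called (-0.31, per the authors' deposited table). With the scrambled siRNA, Rny1 and Vaultrc5 were also called lower, at -1.76 and -2.10 in the authors' deposited table. All 4 members of a list of polymerase III and ribozyme RNAs lay below 0 with an unadjusted p under 0.05. Of these, the authors' deposited table called Rprl1, an RNA of RNase P, which trims the 5' end of tRNAs, at -1.70 ± 0.39 (adjusted p = 0.0493). Rprl2 stood at -1.56, Rmrp, the RNA of RNase MRP, at -1.43 and Rn7sk, which holds the elongation factor P-TEFb inactive, at -0.51 in the authors' deposited table, and none of these 3 was called. The spliceosomal RNA Rnu2, which pairs with the intron's branch site, had 7 rows between -1.73 and -1.58 in the authors' deposited table, of which 5 were called. Some of the Rnu2 rows were identical in both comparisons, so they are not separate measurements. Rnu12, the counterpart of U2 in the minor spliceosome, stood at -1.56 ± 0.45 in the authors' deposited table (adjusted p = 0.0697).

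Mitochondrially encoded transcripts were split. ND6, a complex I subunit encoded on the opposite strand to the other mitochondrial mRNAs, was called lower at -2.60 ± 0.34 and had the smallest adjusted p of all rows with a single symbol (0.00352) in the authors' deposited table. It hardly differed from its scrambled siRNA value, -2.59, in the authors' deposited table. The other 7 mitochondrial mRNAs lay between -0.52 for ND4L and 0.35 for ND1 in the authors' deposited table, and none was called.

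**Figure D2:**
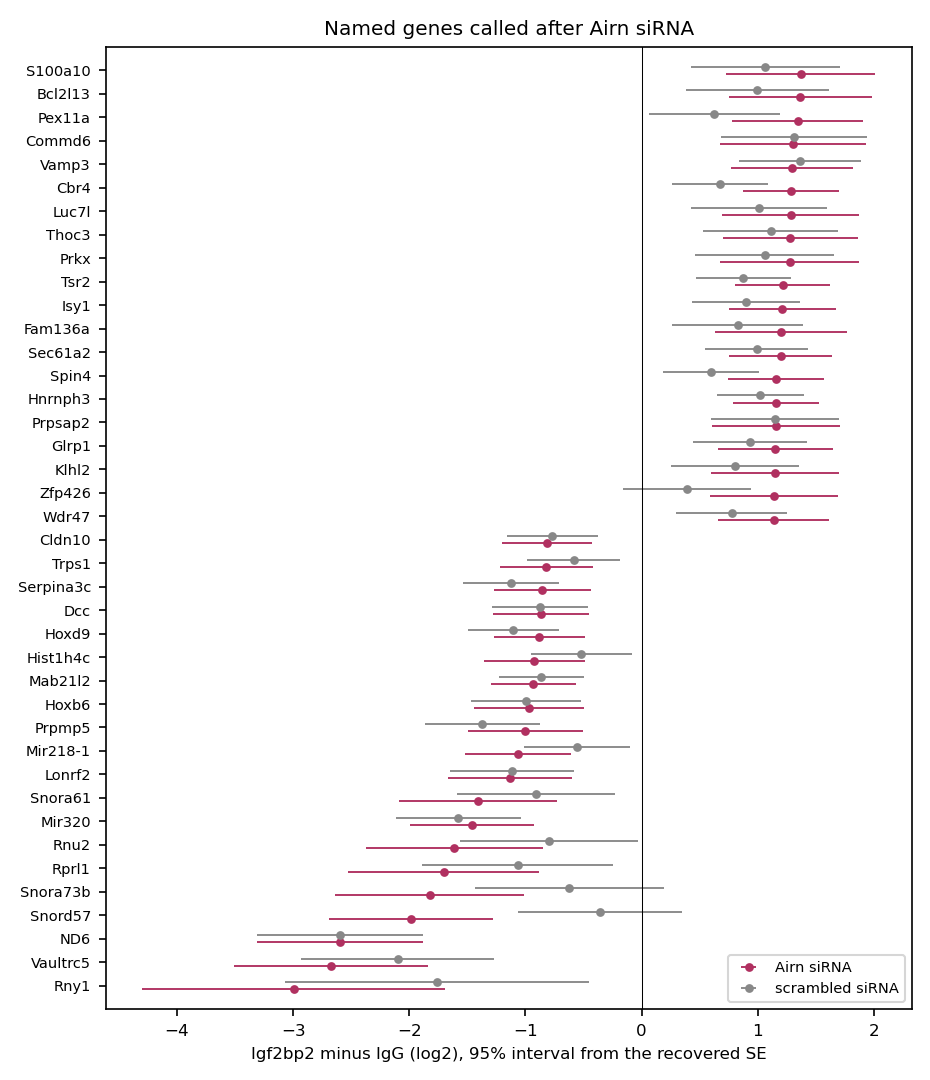
Genes named here and called after the Airn siRNA are listed with their Igf2bp2 minus IgG difference (log2) on the x axis, for the Airn siRNA in red and the scrambled siRNA in grey, with 95% intervals from the recovered SE; of the genes called higher, the 20 with the largest values are drawn. Small RNAs and the mitochondrial mRNA ND6 hold the lowest places, Snord57 and Rny1 lie lower after the Airn siRNA than with the scrambled one, and the high genes lie between 1.14 and 1.37. In the recovered test the gap was -1.63 ± 0.47 for Snord57 (unadjusted p = 0.00322) and -1.23 ± 0.87 for Rny1 (unadjusted p = 0.176). Neither passed the adjustment.

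Small nucleolar RNAs had medians of opposite sign with both siRNAs, and the difference of these medians was the widest among the lists with at least 5 measured members. By the median of the gaps of single genes, a list of 5 U RNAs lay further apart (-0.81, against -0.60). Only Rnu2 and Rnu12 of that list are spliceosomal, and their gaps were -0.81 and -0.16. Its other members were Rnu3a (-1.285), Rnu73b (-1.286) and Rnu73a (0.107). Small nucleolar RNAs guide the chemical modification of ribosomal and spliceosomal RNA: H/ACA members (Snora) guide pseudouridylation and C/D members (Snord) guide 2'-O-methylation. Most are cut from introns of host genes. After the Airn siRNA, 46 of 55 small nucleolar and Cajal body RNAs lay below 0, with a median of -0.65 in the authors' deposited table. By contrast, 23 lay below 0 with the scrambled siRNA, where the median was 0.08. The median over all genes in the authors' deposited table was 0.01 after the Airn siRNA and -0.05 with the scrambled one. After the Airn siRNA 3 were called lower and none higher, per the authors' deposited table, and 18 were lower and 1 higher at an unadjusted p under 0.05. The calls with the scrambled siRNA were 1 lower (Snora61) and 3 higher (Snora70, Snora30 and Snord16a). Both classes took part: 23 of 23 H/ACA members and 22 of 29 C/D members had a lower value after the Airn siRNA than with the scrambled one, and their medians after it were -0.70 and -0.53.

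Among the members called lower after the Airn siRNA, Snord57 stood at -1.99 ± 0.33 (adjusted p = 0.0168) in the authors' deposited table, against -0.36 with the scrambled siRNA. Snora73b was called lower at -1.82 ± 0.38 (adjusted p = 0.0438) and Snora61 at -1.41 ± 0.32 (adjusted p = 0.0493) in the authors' deposited table. The largest gap between siRNAs among these RNAs was that of Snora69, at -2.14 ± 0.53 (adjusted p = 0.055, not called) after the Airn siRNA and 0.36 with the scrambled one in the authors' deposited table. That gap was -2.49 ± 0.75 (95% interval -4.08 to -0.91), and the recovered test gave it an unadjusted p of 0.00412 (adjusted p = 0.998). Snord118, the U8 RNA needed for maturation of the large ribosomal subunit, had 2 identical rows at -2.04, and Snora73a, a paralogue of Snora73b, stood at -1.74 in the authors' deposited table; neither was called. The highest member was Snord37, at 1.12 ± 0.28 (adjusted p = 0.059) in the authors' deposited table. In the recovered test of the difference between siRNAs, 10 of the 55 were lower and none higher after the Airn siRNA at an unadjusted p under 0.05, against 1.14% of all genes lower and 1.6% higher, and none passed the adjustment over all rows. Their values were imprecise, with a median SE of 0.39, against 0.23 over all genes.

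Transcripts that carry small nucleolar RNAs in their introns did not move as one. Snhg1 had 5 rows: its most precise row stood at -0.14 ± 0.29 after the Airn siRNA and at 1.35 with the scrambled one in the authors' deposited table, and its other rows lay between -0.90 and 0.41. The gap in that row was -1.50 ± 0.42 (unadjusted p = 0.0024, adjusted p = 0.998 in the recovered test). In the other rows of Snhg1 the gap ranged from -0.93 to 0.37, so the rows did not share a direction. Gas5, another such host, stood at 0.89 ± 0.34 in its most precise row of the authors' deposited table, while its other 3 rows ranged from -1.01 to 0.74. The host gene Snhg5, listed under a clone name, was called higher at 0.81 ± 0.17 (adjusted p = 0.0458) in the authors' deposited table. With the scrambled siRNA it stood at 0.64 and was also called higher. Which part of the transcript each row reports on was not examined.

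**Figure D3:**
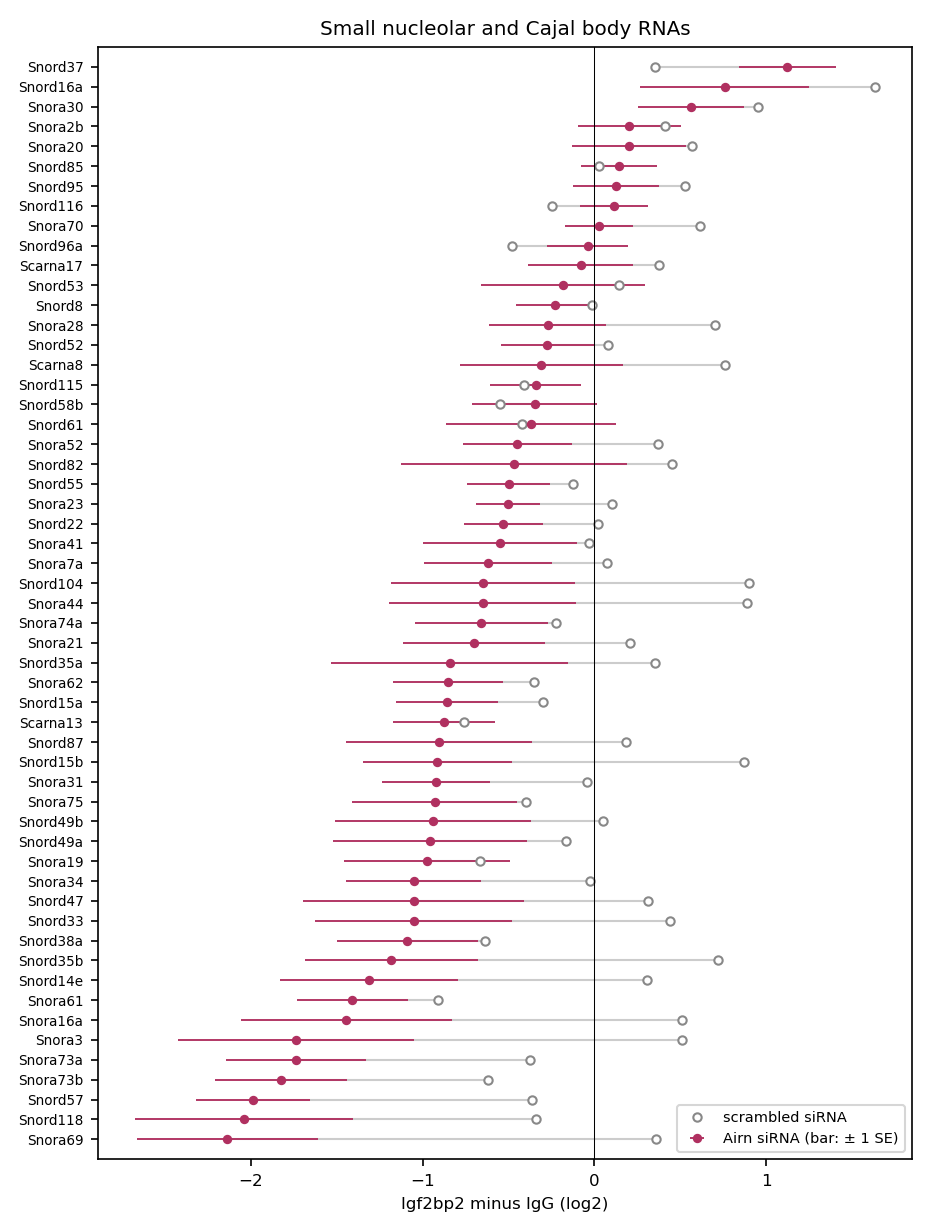
The 55 small nucleolar and Cajal body RNAs are ordered by their Igf2bp2 minus IgG difference (log2, x axis) after the Airn siRNA (filled, with a bar of ± 1 SE), and open circles give the scrambled siRNA value. The open circles lie to the right of the filled ones for 48 of the 55.

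MicroRNA genes were low with both siRNAs. The median over 306 genes was -0.47 after the Airn siRNA and -0.60 with the scrambled one in the authors' deposited table, and 25 lay above 0 after the Airn siRNA. The authors' deposited table called 2 of them lower and none higher, while 122 were lower and 3 higher at an unadjusted p under 0.05. Mir320 stood at -1.46 ± 0.25 (adjusted p = 0.021) and Mir218-1, whose strands are printed above, at -1.06 ± 0.22 (adjusted p = 0.04) in the authors' deposited table. With the scrambled siRNA Mir320 stood at -1.58 and Mir218-1 at -0.56 in the authors' deposited table, of which the former was called. Mir379 and Mir411, whose 3' strands share the seed AUGUAAC, stood at -1.25 ± 0.41 and -1.09 ± 0.36, per the authors' deposited table, with adjusted p of 0.0838 and 0.0852. The 3 microRNA genes that were higher at an unadjusted p under 0.05, named after their values were seen, were Mir143 (0.84), Mir15a (0.71) and Mir490 (0.61) in the authors' deposited table. Entries among the RefSeq mature-strand sequences used here were found for 264 of the 306 microRNA genes.

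Other transcripts called lower included genes of body patterning and development. The Hox cluster, which encodes homeodomain factors, had 37 members measured; the authors' deposited table called 2 lower and none higher, and their median was -0.51. These 2 were Hoxb6 at -0.97 ± 0.22 (adjusted p = 0.0499) and Hoxd9 at -0.88 ± 0.18 (adjusted p = 0.0436) in the authors' deposited table. At an unadjusted p under 0.05, 14 Hox genes were lower and 0 higher. Within the family, Hoxa5, Hoxa6 and Hoxa10 lay above 0 (0.36, 0.33 and 0.45 in the authors' deposited table), none of them called. Further genes of development called lower were Mab21l2 at -0.93 ± 0.17, which acts in eye development, the zinc-finger repressor Trps1 at -0.82 ± 0.19 and the netrin receptor Dcc at -0.87 ± 0.20 in the authors' deposited table. The other Trps1 row stood at -0.59 and was not called. Lonrf2 (-1.13), the serpin Serpina3c (-0.86), the tight-junction gene Cldn10 (-0.81) and Prpmp5 (-1.0) were also called lower in the authors' deposited table; the other row of Cldn10 (-0.74) and that of Prpmp5 (-0.47) were not called. Replication-dependent histone mRNAs, which end in a stem-loop in place of a poly(A) tail, had a median of -0.33 over 31 genes, with 14 lower and 3 higher at an unadjusted p under 0.05. The authors' deposited table called 1 of them, Hist1h4c (now H4c3), at -0.92 ± 0.20 (adjusted p = 0.0474).

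Families used mainly in other tissues had medians below 0. Olfactory receptors, which are expressed in the nose, had a median of -0.52 over 1037 genes in the authors' deposited table, and 32 lay above 0. None was called, but 356 were lower and 2 higher at an unadjusted p under 0.05. Vomeronasal and taste receptors had a median of -0.58, keratins and their associated proteins -0.40, defensins -0.47 and cytochrome P450 genes of families 1 to 4 -0.39 in the authors' deposited table. Together with immunoglobulin and T-cell receptor segments, these families held 1471 genes with a median of -0.52; 4.35% lay above 0 and none was called. Olfactory receptors make up most of these genes. Among the P450 genes 13 of 66 lay above 0, and 4 were higher and 16 lower at an unadjusted p under 0.05. Whether the low values of Hox and other called genes share their source was not tested.

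**Figure D4:**
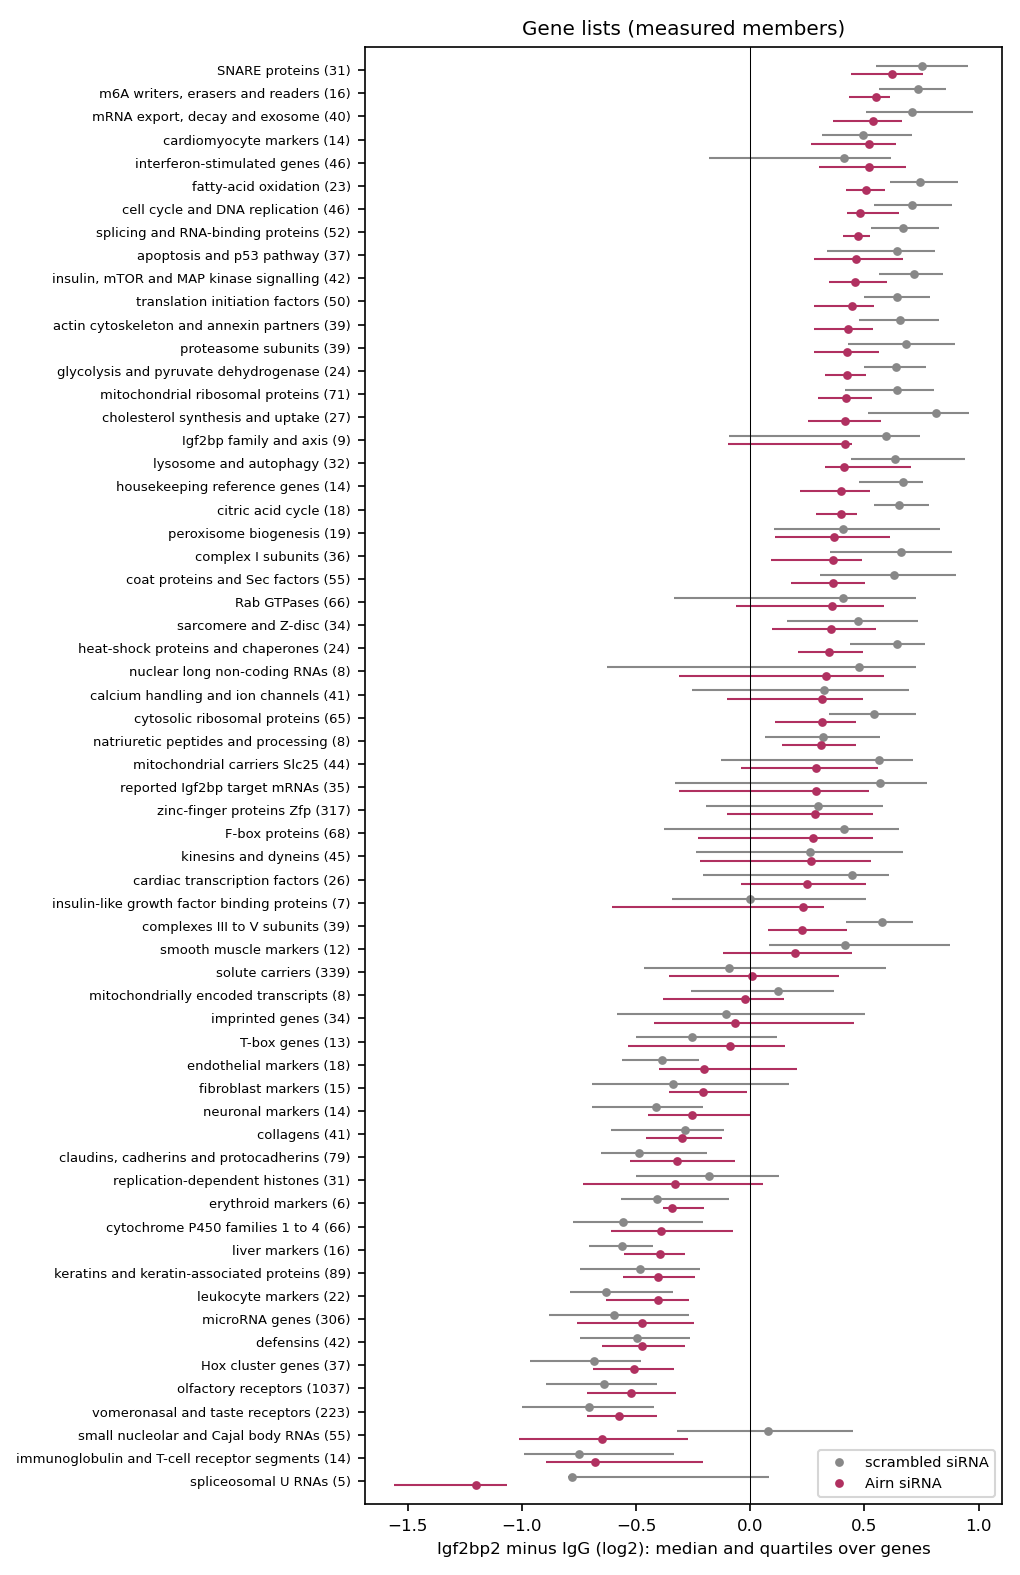
For each gene list with at least 5 measured members (number in brackets), the point gives the median and the line the quartiles of the Igf2bp2 minus IgG difference (log2, x axis) over its genes, after the Airn siRNA in red and with the scrambled siRNA in grey. Of these 62 lists, 58 had the same sign of median with both siRNAs, and 54 had a median nearer 0 after the Airn siRNA. The list labelled spliceosomal U RNAs also holds Rnu3a, Rnu73a and Rnu73b, which are not spliceosomal.

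At the high end stood mRNAs of many functions. Each gene is taken here by its most precise row, and genes that the table lists under a clone name, 2 of which had larger values, are counted but not named. The highest of the others called in the authors' deposited table was S100a10, the partner of annexin A2 at the plasma membrane, at 1.37 ± 0.30 (adjusted p = 0.0474). It was followed by Bcl2l13, a mitochondrial protein of the BCL2 family that acts in mitophagy, at 1.37 ± 0.29 (adjusted p = 0.0448) in the authors' deposited table. Pex11a, which divides peroxisomes, stood at 1.35 ± 0.27 in the authors' deposited table, against 0.63 with the scrambled siRNA, where it was not called. Genes of membrane traffic included Vamp3, a SNARE of recycling endosomes (1.29 ± 0.25), and Sec61a2, a subunit of the translocon (1.20 ± 0.21), both called in the authors' deposited table. Genes of RNA handling were Luc7l of the U1 particle (1.29 ± 0.28), Thoc3 of the THO export complex (1.28 ± 0.28), Isy1 of the spliceosome (1.21 ± 0.22) and Hnrnph3 (1.16 ± 0.17), all called in the authors' deposited table. Tsr2, which escorts a ribosomal protein into the nucleus, stood at 1.22 ± 0.19 and the reductase Cbr4 of mitochondrial fatty-acid synthesis at 1.29 ± 0.19 (adjusted p = 0.011) in the authors' deposited table. The smallest adjusted p among genes called higher was that of Mis12, a kinetochore protein, at 0.98 ± 0.14 (adjusted p = 0.00949) in the authors' deposited table. Close in precision were Hnrnph3 (adjusted p = 0.0108), Rtn4ip1, a mitochondrial enzyme of coenzyme Q synthesis (1.05 ± 0.18), Spin4, a histone reader (1.16 ± 0.19), and the actin-binding profilin Pfn2 (1.05 ± 0.18) in the authors' deposited table. Commd6 (1.30), the kinase Prkx (1.28), Fam136a (1.20), Prpsap2 of nucleotide synthesis (1.16), Glrp1 (1.15), the ubiquitin ligase adaptor Klhl2 (1.15), Zfp426 (1.14) and Wdr47 (1.14) complete the 20 named genes with the largest values in the authors' deposited table. Of these 20, Pex11a and Zfp426 were not called with the scrambled siRNA, and the other 18 were called higher with both.

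Genes for proteins that bind and process RNA were high as a group. All 52 splicing and RNA-binding protein genes lay above 0 in the authors' deposited table, from 0.05 for Snrpa to 1.29 for Luc7l, with a median of 0.47. It called 3 of them, Luc7l, the core spliceosome gene Snrpd3 (0.89 ± 0.19) and the SR protein gene Srsf4 (0.77 ± 0.18); 32 were higher and none lower at an unadjusted p under 0.05. Export, decay and exosome genes had a median of 0.54 over 40 genes in the authors' deposited table, with 23 higher and 1 lower at an unadjusted p under 0.05, and Thoc3 called. The m6A machinery had no called member. Its median was 0.55 over 16 genes in the authors' deposited table, and 10 were higher and 1 lower at an unadjusted p under 0.05. Its highest members were the eraser Fto (0.88 ± 0.24) and Wtap, a subunit of the writer (0.76 ± 0.25 in the more precise row), and its lowest was Rbm15b (-0.54 ± 0.22), also of the writer, in the authors' deposited table. For comparison, 14 housekeeping reference genes had a median of 0.40, with 7 higher at an unadjusted p under 0.05; Actb stood at 0.57 ± 0.19 (adjusted p = 0.0901) in the authors' deposited table. Gapdh had 4 rows between 0.32 and 0.56 in the authors' deposited table, none called, which may include copies of the gene elsewhere in the genome.

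mRNAs reported as Igf2bp targets in other systems were mixed. None of the 35 measured was called after the Airn siRNA; 11 were higher and 4 lower at an unadjusted p under 0.05, and the median was 0.29 in the authors' deposited table. The highest were the ubiquitin ligase gene Btrc (0.94 ± 0.31), Myc (0.87 ± 0.32) and the hexokinase gene Hk2 (0.77 ± 0.23), and the lowest was Lin28b (-0.79 ± 0.31), in the authors' deposited table. With the scrambled siRNA 16 of the 35 were called higher and 4 lower.

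Translation and mitochondrial genes had medians above 0, and most single members were not called. The 65 cytosolic ribosomal protein genes had a median of 0.31 after the Airn siRNA and 0.54 with the scrambled one in the authors' deposited table. None was called after the Airn siRNA, against 36 called higher with the scrambled one. After the Airn siRNA 54 of the 65 lay above 0, and 24 were higher and 3 lower at an unadjusted p under 0.05. The lowest was Rps12, at -0.91 ± 0.40 in the authors' deposited table. Mitochondrial ribosomal protein genes had a median of 0.42 over 71 genes, and the authors' deposited table called Mrpl50 at 0.85 ± 0.19 (adjusted p = 0.0474). Complex I subunits had a median of 0.36, against 0.66 with the scrambled siRNA, per the authors' deposited table, and none was called. Of the 36, 32 lay above 0 and 6 were higher at an unadjusted p under 0.05, a share below that of all genes. For subunits of complexes III to V these medians were 0.23 and 0.58, again with none called after the Airn siRNA. Of these 39, 33 lay above 0, and 8 were higher and 1 lower at an unadjusted p under 0.05, near the share of all genes. Genes of fatty-acid oxidation, the main fuel pathway of cardiac muscle, all lay above 0 (23 of 23), with a median of 0.51, 11 higher at an unadjusted p under 0.05 and none called. Ppara, the nuclear receptor that drives that pathway, was its highest member at 1.06 ± 0.33 (adjusted p = 0.0785) in the authors' deposited table, against 0.05 with the scrambled siRNA. That gap had an unadjusted p of 0.0468 in the recovered test and did not pass the adjustment. The carnitine transporter gene Slc22a5 had the largest value among 339 solute carrier genes, 1.23 ± 0.34 (adjusted p = 0.0673), and the carnitine-acylcarnitine carrier gene Slc25a20 stood at 1.05 ± 0.29 in the authors' deposited table; neither was called. The 18 citric acid cycle genes and the 24 glycolytic and pyruvate dehydrogenase genes also all lay above 0, with medians of 0.40 and 0.42. Proteasome subunits had a median of 0.42, with 11 of 39 higher at an unadjusted p under 0.05 and 1 lower. The member below was Psma8, a testis form of an alpha subunit, at -0.81 ± 0.28 in the authors' deposited table. Among translation initiation factors by name, the call was Eif2c1 (now Ago1), which is an Argonaute protein of RNA silencing, at 0.82 ± 0.19 in the authors' deposited table.

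SNARE genes, whose proteins fuse membranes, had the highest median of the 62 lists, 0.62 over 31 genes in the authors' deposited table. At an unadjusted p under 0.05, 20 were higher and none lower. Below Vamp3, the highest were Stx2 (1.00 ± 0.24), Snap23 (1.00 ± 0.27) and Vamp7 (0.98 ± 0.24) in the authors' deposited table, and the lowest were the neuronal forms Stx1a (-0.54) and Snap25 (-0.23). Among 66 Rab GTPase genes, each by its most precise row, the authors' deposited table called Rab23, a regulator of hedgehog signalling, at 0.95 ± 0.20. It also called a less precise row of Rab5b (0.88, adjusted p = 0.0489), whose most precise row was not called (0.775, adjusted p = 0.0532). Actin cytoskeleton and annexin partner genes had a median of 0.43, with 2 of 39 called, S100a10 and Pfn2. Cell cycle genes all lay above 0 (46 of 46), and 23 were higher at an unadjusted p under 0.05. The authors' deposited table called Cdkn1b, the inhibitor p27, at 1.01 ± 0.21 and the transcription factor gene E2f3 at 0.93 ± 0.20; the second row of each was not called (0.28 and 0.61). Of signalling and cell death genes it called the kinase Mapk9 (JNK2) at 1.03 ± 0.21 and the death-receptor adaptor Fadd at 0.90 ± 0.21, beside Bcl2l13. Among 317 zinc-finger genes of the Zfp series, 6 were called higher and 0 lower, per the authors' deposited table, 97 were higher and 19 lower at an unadjusted p under 0.05, and the median was 0.28. Those called were Zfp426, Zfp84 (1.05 ± 0.23), Zfp763 (1.02 ± 0.22), Zfp58 (1.00 ± 0.21), Zfp583 (0.98 ± 0.22) and Zfp322a (0.92 ± 0.21) in the authors' deposited table. Zfp84, Zfp426 and Zfp583 stood at 0.38, 0.39 and 0.48 with the scrambled siRNA, per the authors' deposited table.

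Most cardiomyocyte markers lay above 0 (12 of 14), and the markers of most other cell types had a median below 0. Of 14 cardiomyocyte markers, 9 were higher and none lower at an unadjusted p under 0.05, and their median was 0.52 in the authors' deposited table. The table gives differences between precipitates of the same cells and no levels, so the labelled cell type could not be checked. Nppa, which encodes atrial natriuretic peptide, was called higher at 1.03 ± 0.23 (adjusted p = 0.0474), and Myl4, the atrial essential light chain, at 0.78 ± 0.17 (adjusted p = 0.0474) in the authors' deposited table. Nppa stood at 0.19 with the scrambled siRNA, per the authors' deposited table, and the gap between siRNAs was 0.84 ± 0.32 (unadjusted p = 0.0183, adjusted p = 0.998 in the recovered test). Myl4 stood at 0.72 with the scrambled siRNA, per the authors' deposited table. Gja1, a gap-junction gene, stood at 0.87 ± 0.25, Actc1, cardiac actin, at 0.64 ± 0.19, and Tnni3 and Tnnt2, cardiac troponins, at 0.64 ± 0.20 and 0.58 ± 0.17 in the authors' deposited table, none of them called. The markers below 0 were Sln (-0.40) and Gja5 (-0.14), both of atrial tissue, in the authors' deposited table, neither called. Sarcomere genes had a median of 0.35 over 34 genes, with 13 higher and 1 lower at an unadjusted p under 0.05; the lower one was Myot (-0.53 ± 0.18) in the authors' deposited table. Median values were -0.40 for 22 leukocyte markers, -0.40 for 16 liver markers, -0.35 for 6 erythroid markers, -0.26 for 14 neuronal markers, -0.21 for 15 fibroblast markers and -0.20 for 18 endothelial markers in the authors' deposited table. At an unadjusted p under 0.05, 8 leukocyte, 5 liver, 2 erythroid, 4 neuronal, 1 fibroblast and 3 endothelial markers were lower, and 1 leukocyte, 1 fibroblast and 2 endothelial markers were higher. The fibroblast share was thus below, and the endothelial share near, that of all genes. Smooth muscle markers had a median of 0.20 over 12 genes, with 1 higher and 2 lower at that threshold. No marker of another cell type was called in either direction after the Airn siRNA.

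Interferon-stimulated genes, which interferons induce and which act against viruses, had a higher median after the Airn siRNA than with the scrambled one. Of the lists whose median lay above 0 with the scrambled siRNA, the others that did so were kinesins and dyneins and the cardiomyocyte markers. The median of the interferon-stimulated genes was 0.52 over 46 genes after the Airn siRNA and 0.41 with the scrambled one in the authors' deposited table. At an unadjusted p under 0.05, 24 were higher and none lower after the Airn siRNA, and the authors' deposited table called 2 higher, Irf1 at 1.02 ± 0.21 (adjusted p = 0.0407) and Gbp3 at 0.73 ± 0.16 (adjusted p = 0.0458). A second Irf1 row stood at -0.33 and was not called. With the scrambled siRNA 14 of the 46 were called higher and 4 lower, namely Mx2, Ifi203, Rsad2 and Mx1. After the Airn siRNA the values of those 4 were 0.91, -0.03, 0.25 and -0.15 in the authors' deposited table. The count below 0 was 15 with the scrambled siRNA and 5 after the Airn siRNA. The value was higher after the Airn siRNA in 28 of the 46, against 48.6% of all genes, with a median gap of 0.264. In the recovered test, 8 were higher and none lower after the Airn siRNA at an unadjusted p under 0.05. Of all genes, 1.6% were higher and 1.14% lower at that threshold. None of the 46 passed the adjustment over all rows. Since these differences compare precipitates, a change in the genes' expression between the siRNAs was not measured.

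**Figure D5:**
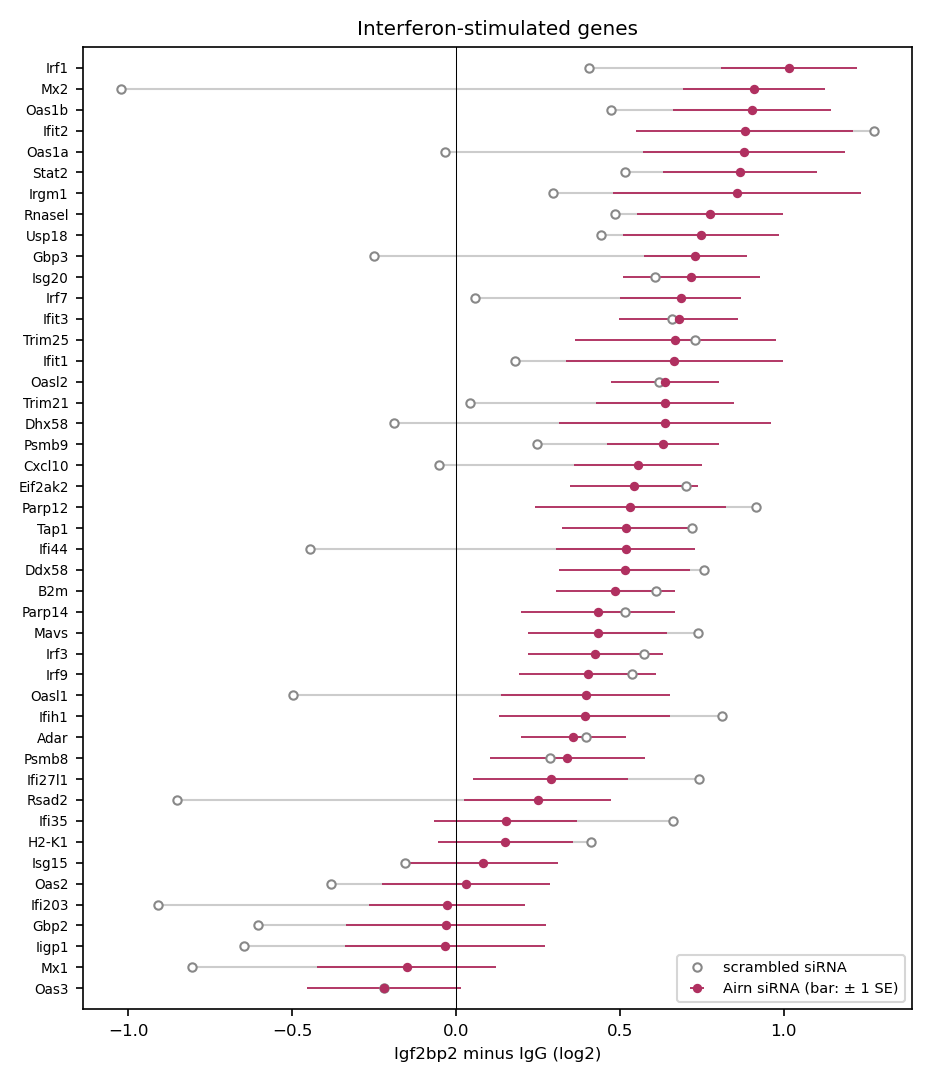
Interferon-stimulated genes are ordered by their Igf2bp2 minus IgG difference (log2, x axis) after the Airn siRNA (filled, with a bar of ± 1 SE), and open circles give the scrambled siRNA value. Mx2, Rsad2, Gbp3 and Ifi44 have the widest gaps, each with the scrambled value below 0 and the other above 0.

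The difference between siRNAs was tested for every row, and it singled out no gene after adjustment. None of the 20170 genes (0%) reached an adjusted p under 0.05 in the recovered test. At an unadjusted p under 0.05, 322 genes were higher (1.6%) and 229 lower (1.14%) after the Airn siRNA. Together these shares lie below the rate that this threshold alone gives with exact errors and no differences. Whether the recovered errors, taken as independent, were too wide was not tested. The smallest p was that of Mx2, with a gap of 1.93 ± 0.31 (95% interval 1.28 to 2.58) and an adjusted p of 0.18. Mx2 is named for the Mx family of antiviral GTPases, but RefSeq classes it as a transcribed pseudogene. Its values were 0.91 ± 0.22 after the Airn siRNA and -1.02 with the scrambled one in the authors' deposited table, so it lay on opposite sides of 0, called lower in the latter. Next in order came Trim30a, a regulator of inflammatory signalling, with a gap of 1.40 ± 0.26 (adjusted p = 0.586), and Gbp3, a guanylate-binding protein, with a gap of 0.98 ± 0.22 (adjusted p = 0.856). Rtp4, which is known to be induced by interferon, was called higher after the Airn siRNA at 1.12 ± 0.25 and stood at -0.22 with the scrambled siRNA, per the authors' deposited table, a gap of 1.34 ± 0.36. Fgf16, a growth factor of the heart, was called at 0.90 ± 0.16 after the Airn siRNA (adjusted p = 0.0262) and stood at -0.02 with the scrambled one in the authors' deposited table. Cby1, an antagonist of beta-catenin, was called at 0.82 ± 0.16 and stood at 0.02 with the scrambled siRNA, per the authors' deposited table. Further genes higher in this test were Fgf6 (gap 1.02), Ttll11 (1.19), Samd12 (0.93), Eif4e1b (0.92) and Myct1 (0.75), all with values below 0 with the scrambled siRNA. The other row of Eif4e1b had the opposite sign of gap (-0.29).

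In the other direction, the protein-coding genes named here had been called higher with the scrambled siRNA and lay nearer 0 after the Airn siRNA, and they were picked for this gap. Cyp39a1, an oxysterol hydroxylase, stood at 0.23 after the Airn siRNA and 1.26 with the scrambled one in the authors' deposited table, a gap of -1.04 ± 0.27 (p = 0.00153). The gap was -0.80 ± 0.23 for Cdc42ep2, an effector of Cdc42, -0.87 ± 0.25 for Rg9mtd1 (now Trmt10c), a subunit of mitochondrial RNase P, and -1.01 ± 0.30 for Tmem222. It was -0.93 ± 0.29 for the lysosomal thioesterase gene Ppt1, -0.97 ± 0.31 for the cohesin subunit gene Stag1 and -0.69 ± 0.22 for Uqcr11 of complex III. The other Uqcr11 row had a gap of -0.30 and was not called with the scrambled siRNA (0.49). Among genes called with the scrambled siRNA, those nearest 0 after the Airn siRNA were Mrpl28, Pebp1, P4ha2 and Hs6st1, which had been higher (0.68, 0.74, 0.76 and 0.58 in the authors' deposited table), and Vtn, Ccdc11 (now Cfap53), Trim45, Fetub, Slc34a3 and Dlx3, which had been lower (from -0.93 to -0.63). These 10 were picked for values near 0, all between -0.01 and 0.01, and no test of that closeness was made. The other rows of Pebp1 stood at 0.34 and 0.23 after the Airn siRNA.

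The kind of transcript and the size of its gene went with the values. By RefSeq class, 18254 protein-coding genes had a median of 0.09, 459 long non-coding RNA genes -0.30 and 139 pseudogenes -0.23 in the authors' deposited table. The authors' deposited table called 159 protein-coding genes higher and 19 lower, and 2 long non-coding RNA genes higher and 5 lower. RefSeq puts the small vault RNA Vaultrc5 in the long non-coding class, so it is counted among those 5. When protein-coding genes were divided into 5 groups of equal size by the length of the gene on the chromosome, the medians from shortest to longest were -0.31, 0.05, 0.22, 0.30 and 0.24. The group of shortest genes spanned up to 5.18 kb. Spearman's rho of gene span and value was 0.229 over 18254 genes and 0.125 over the 16832 left without the receptor, keratin, defensin, segment and P450 families. These are descriptions across genes, which are not independent replicates. Chromosome medians ranged from -0.12 on chromosome 7 to 0.25 on chromosome 12 among the autosomes.

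Rows of the same gene did not always give the same answer. Of the called genes, 30 had several rows, and in 10 of these the row with the smallest SE was not the called one. One case, chosen after its values were seen, was Sf3b4, a subunit of the U2 particle: 1 row was called at -1.49 (adjusted p = 0.0186) and its more precise row stood at 0.04 ± 0.17 in the authors' deposited table. Also chosen after their values were seen, Llph had 2 rows called higher, up to 1.62, and its remaining row at -0.09, and Cspp1 had 2 of 14 rows called higher, up to 1.52, and a most precise row at 0.45 in the authors' deposited table. For such genes the table does not settle whether the transcript as a whole was enriched.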

How the data were processed

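Cells were HL-1 in 4 groups (anti-Igf2bp2 or IgG, Airn or scrambled siRNA) of 4 arrays each, per the labels. The authors deposited 1 table of their own comparisons; per the file headers it holds, for each transcript cluster and siRNA, the difference between precipitates (read as log2, the base being unstated) with a p-value and an adjusted p-value. Software, normalization, model, array annotation and genome build were not given in the sources used here. A planned limma fit to single arrays could not be made. Each SE was recovered from the deposited log2 difference and p-value with 16.14 degrees of freedom, the number that made both comparisons' SEs equal (median disagreement 0.0551% over 21879 rows). The deposited adjusted p-values matched Benjamini-Hochberg within 0.000225 where p was at least 0.001. The difference between siRNAs used independent errors, a t distribution and Benjamini-Hochberg over all rows; the recovery was tested on simulated data. Python 3.11.15, pandas 2.3.3 and scipy 1.17.1 were used.

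Groups came from the labels. Whether replicates share a culture day is not given, and precision is limited by the number of arrays. The members and the 66 gene lists were chosen with earlier results of these data known. Named were the 20 largest called genes in each direction and the 10 with the smallest adjusted p; called members of each list up to 6, otherwise the 3 largest; the 10 smallest p in each direction for the difference between siRNAs; the 10 scrambled-called genes nearest 0 and the 10 called genes largest against the scrambled value; and Airn, Igf2r, Igf2bp1 to 3, Igf2, H19, Actb and Gapdh. Predicted and clone-named genes were counted only, except the host gene Snhg5, and members named beyond this rule illustrate their list. Some genes that the rule or a list holds are not reported or drawn here by name, and counts and medians include them. Of 20170 symbols, 17433 were current in RefSeq (GRCm38.p6) and 2024 were synonyms. Alternatives were other thresholds, adjustment over fewer rows, centring, 1 row per gene and, for the difference, correlated errors and scaling.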

Additional observations from a re-analysis of the deposited data

How the results depend on the processing

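The counts depended on the threshold. Of 176 rows called higher and 40 called lower, adjusting over the rows with a single symbol alone left 28 and 8, an adjusted p under 0.01 left 1 and 3, and a minimum of 2-fold left 73 and 24. An adjusted p under 0.1 gave 2557 and 1423, and an unadjusted p under 0.05, added after seeing the data, gave 4778 and 3433. Centring on the median of all rows gave 785 and 77 (91.1% higher, against 81.5%), and centring on that of the single-symbol rows 58 and 15. With 1 row per gene the counts were 164 and 34, and with identical rows counted once 176 and 37. Of 66 named genes that were called, adjusting over single-symbol rows kept 17 calls, centring on all rows kept 66 and centring on single-symbol rows kept 28. Centring on all rows also added 14 named genes. No called gene changed sign under either centring. Of named genes not called, centring on all rows (median -0.057) turned Ccdc11 (0.052), Dlx3 (0.049), Fetub (0.05), Hs6st1 (0.052), P4ha2 (0.052), Samd12 (0.012) and Trim45 (0.05) above 0. Centring on single-symbol rows (median 0.038) turned Pebp1 (-0.035), Slc34a3 (-0.031), Tmem222 (-0.022) and Vtn (-0.033) below 0.

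For the difference between siRNAs, 0 rows passed, 613 had an unadjusted p under 0.05, and an assumed correlation of 0.3 between the errors let 1 row pass (smallest adjusted p 0.0203). A correlation of -0.3, centring, scaling and adjusting over fewer rows let none pass, with smallest adjusted p from 0.0676 to 0.793. No paired analysis was possible because the table holds no values of single arrays; for the same reason no replicate could be left out, so neither the spread between replicates nor signal over background was examined.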

Other observations

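Rows without a gene symbol held a large share of the low calls. Of 10302 rows with no symbol, 33 were called higher and 105 lower after the Airn siRNA, per the authors' deposited table, and of 2824 rows with several symbols 15 were called higher and 6 lower. The lowest value of all rows in the authors' deposited table was -4.24, against -2.99 among rows with a single symbol. What these unnamed rows measure was not examined.

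Some uncalled rows had values as large as the called ones. Cyb5 stood at 1.58 ± 0.39 (adjusted p = 0.0576) and E2f6 at 1.38 ± 0.33 (adjusted p = 0.0516) in the authors' deposited table, both named after their values were seen. An olfactory receptor gene, Olfr1148, stood at 1.30 ± 0.37 (adjusted p = 0.069) in the authors' deposited table, far above the median of its family.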
